A study of Mus musculus with 9 samples.

Results

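A set of 9 genes of hepatic glycogen metabolism were followed through whole livers of 9 mice, chosen by their gene symbol from the 55401 genes counted. They comprise 3 glycogen-targeting subunits of protein phosphatase 1 (Ppp1r3b, Ppp1r3c and Ppp1r3g), both glycogen synthases (Gys2 and Gys1), the liver and brain glycogen phosphorylases (Pygl and Pygb), the UDP-glucose pyrophosphorylase Ugp2 and the branching enzyme Gbe1. The genes were proposed with results of these livers already known, so their values are given as a description without a test. All 9 genes were among the 15717 that passed the filter on low counts. Ppp1r3g passed it on the counts of miR-22-treated livers.

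RNA was sequenced from the livers of female mice, 3 each in the groups called healthy, untreated HCC and miR-22-treated HCC. Both HCC groups carried RAS/AKT-induced tumors: at the age of 6 weeks, the mice received by tail vein plasmids for activated AKT (myr-AKT) and NRAS (Nras-v12) with the sleeping beauty transposase, which enter and integrate in hepatocytes and are driven by EF1α (AKT) and CAGGS (NRAS) promoters. A single dose of AAV8, given 1 week later, carried miR-22 in the treated group and no insert in the group called untreated, and livers were taken 5 weeks after the oncogenes. Healthy livers were wild-type and received neither plasmids nor virus, and no time is given for them. The sources name the strain as FVB/N in one place and C57BL/6 in another, and the virus dose differs between the sample descriptions and the methods. A protocol also lists a plasmid for activated β-catenin, which the design of the sequenced livers does not name. The study used a β-catenin/AKT model as well, and its methods give the sequenced HCC livers as RAS/AKT-induced. Each library was made from whole liver, so tumor and non-tumor tissue were not separated, and fewer cells of a type cannot be told apart from less RNA per cell. Whether the mice had eaten before the livers were taken, and at what hour, is not given in the sources used here.

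Hepatocytes store glucose after a meal as glycogen and release it between meals. Ugp2 makes the UDP-glucose that glycogen synthase adds to the growing chain, Gbe1 introduces the branches, and glycogen phosphorylase removes glucose units again. Protein phosphatase 1 switches synthase on and phosphorylase off, and it reaches both on the glycogen particle through targeting subunits of the Ppp1r3 family. Gys2 and Pygl are the isozymes of the adult liver, whereas Gys1 and Pygb serve muscle, brain and other tissues. Of the targeting subunits, Ppp1r3b is the main one of liver, Ppp1r3c is made in many tissues, and Ppp1r3g is known in liver as a subunit whose level follows fasting and feeding.

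The libraries held 16664659 to 23908392 counts. Levels below are CPM, the counts of a gene divided by the library total and scaled to a common depth with edgeR's TMM factors. These factors ran from 0.865 to 0.872 for the healthy group, from 1.12 to 1.22 for untreated HCC and from 0.942 to 1.03 for treated HCC. The summed level of 6 hepatocyte markers (albumin and Hnf4a among them) ran from 118000 to 125000 CPM in healthy livers, from 48500 to 60500 in untreated HCC and from 72800 to 87500 with miR-22, and that of 6 cholangiocyte markers was 29.5 to 42.1, 3340 to 6260 and 1570 to 2710 CPM. In the same order of groups, the sums over 6 markers each were 202.5 to 258, 727 to 857 and 506 to 641 CPM for stellate cells and fibroblasts, 1.70 to 4.46, 16.1 to 21.2 and 14.5 to 23.1 CPM for neutrophils, and 113 to 170.0, 234 to 325 and 212 to 239.8 CPM for erythroid cells. Endothelial markers summed to 329 to 414, 208 to 265 and 276 to 354 CPM, while those of macrophages (253 to 308, 230.4 to 264 and 286 to 303 CPM) and of lymphocytes (4.72 to 6.29, 6.13 to 8.73 and 5.23 to 8.04 CPM) lay closer together. The part of these cell types in the differences between groups was not tested. Healthy replicates 1 and 3 also carried skeletal muscle transcripts, with 83.55 and 17.8 CPM summed over 6 muscle markers against 0.315 CPM in replicate 2 and at most 0.716 CPM in any HCC liver. Akt1, the mouse gene of the injected AKT, lay at 103 to 109 CPM in healthy livers, against 1170 to 1673 in untreated HCC and 672 to 1104 with miR-22. The host gene of endogenous miR-22, Mir22hg, lay at 56.5 to 70.9, 13.3 to 20.6 and 27.9 to 32.7 CPM, and the virus is not read out by it.

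Because miR-22 was the agent delivered, its guide strand is shown as the basis for a search of the 9 genes. The mature miR-22-3p (RefSeq, GRCm38.p6, chr11:75463772-75463793, plus strand) is written 5′ to 3′ with its seed, bases 2 to 8, in capitals.
miR-22-3p: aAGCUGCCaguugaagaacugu
The DNA letters that pair with this seed, GGCAGCT, were searched in the 3′ UTR of the canonical transcript of each gene (GENCODE M39). None of the 9 genes held them, over 3′ UTRs of 172 bases (Pygl) to 4663 bases (Ppp1r3b). Across all 20718 transcripts with a 3′ UTR, 14.0% held at least 1 such stretch, with a median 3′ UTR length of 1084 bases. The absence concerns these 7 letters in these windows alone.

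Ppp1r3g changed over the widest range of the 9 genes. The gene (ENSMUSG00000050423.11) lies at chr13:36142822-36154371 on the plus strand (GRCm39). It had 28, 9 and 8 counts in healthy livers, 0, 0 and 2 counts in untreated HCC, and 185, 232 and 440 counts in miR-22-treated HCC. Scaled to depth, this was 1.76, 0.567 and 0.440 CPM in healthy livers, 0, 0 and 0.0747 CPM in untreated HCC, and 10.6, 14.8 and 20.9 CPM with miR-22. The 3 groups did not overlap, and every treated liver stood above every healthy liver. An untreated liver without a count could still hold up to 0.141 CPM (replicate 2) or 0.134 CPM (replicate 3), the worth of 3 counts.

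From the summed counts, Ppp1r3g was 557-fold higher in miR-22-treated than in untreated HCC, with an exact 95% interval of 153.7 to 4607 that covers counting error only. Healthy livers exceeded untreated HCC 31.71-fold (8.284 to 269.9) on the same basis. The treated livers exceeded healthy livers 17.57-fold (13.01 to 24.27). As only 2 counts stand behind the untreated group, both ratios against it are loosely bounded. The log2 fold change fitted by edgeR between treated HCC and healthy livers was 4.08 ± 0.43 (SE, n = 3 per group), and without healthy replicate 1, which held 28 of the 45 healthy counts and most of the muscle transcripts, it was 4.92. Gm30127, a gene on the opposite strand that overlaps Ppp1r3g, had 0 to 2 counts in healthy livers, 0 in untreated HCC and 4 to 6 with miR-22. The libraries did not keep strand, so reads from the overlap cannot be assigned to one of these genes.

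Ppp1r3b was the most abundant of the 3 targeting subunits in every liver, and it fell in HCC and lay between the other groups with miR-22. The gene (ENSMUSG00000046794.9) lies at chr8:35842874-35856680 on the plus strand (GRCm39). Healthy livers held 458, 564 and 559 CPM, untreated HCC 168, 136 and 178 CPM, and miR-22-treated HCC 265, 339 and 215 CPM. None of the groups overlapped. The fitted log2 fold change was −1.71 ± 0.17 (SE) in untreated HCC against healthy livers, a 3.28-fold lower level. Treated livers stood 0.76 ± 0.16 above untreated HCC on the log2 scale (1.70-fold) and −0.95 ± 0.16 from healthy livers (1.93-fold lower).

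Ppp1r3c differed more between livers of the same group than between groups. The gene (ENSMUSG00000067279.3) lies at chr19:36708523-36714070 on the minus strand (GRCm39). Its levels were 49.0, 40.9 and 34.3 CPM in healthy livers, 23.9, 14.1 and 42.2 CPM in untreated HCC, and 25.6, 42.0 and 12.6 CPM in miR-22-treated HCC. All groups overlapped: the highest untreated and treated livers reached the healthy range, and the lowest treated liver was 3.33-fold below the highest treated one. The log2 fold change was −0.62 ± 0.39 (SE) in untreated HCC against healthy livers and −0.014 ± 0.39 with miR-22 against untreated HCC. Its biological coefficient of variation as estimated by edgeR, a measure of spread between livers of a group beyond counting error, was 33.4%, higher than that of 92.5% of the tested genes. The same measure was 31.8% for Ppp1r3g (higher than 91% of genes) and lay between 11.4% (Pygb) and 17.8% (Gys1) for the other 7 genes.

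**Figure D1:**
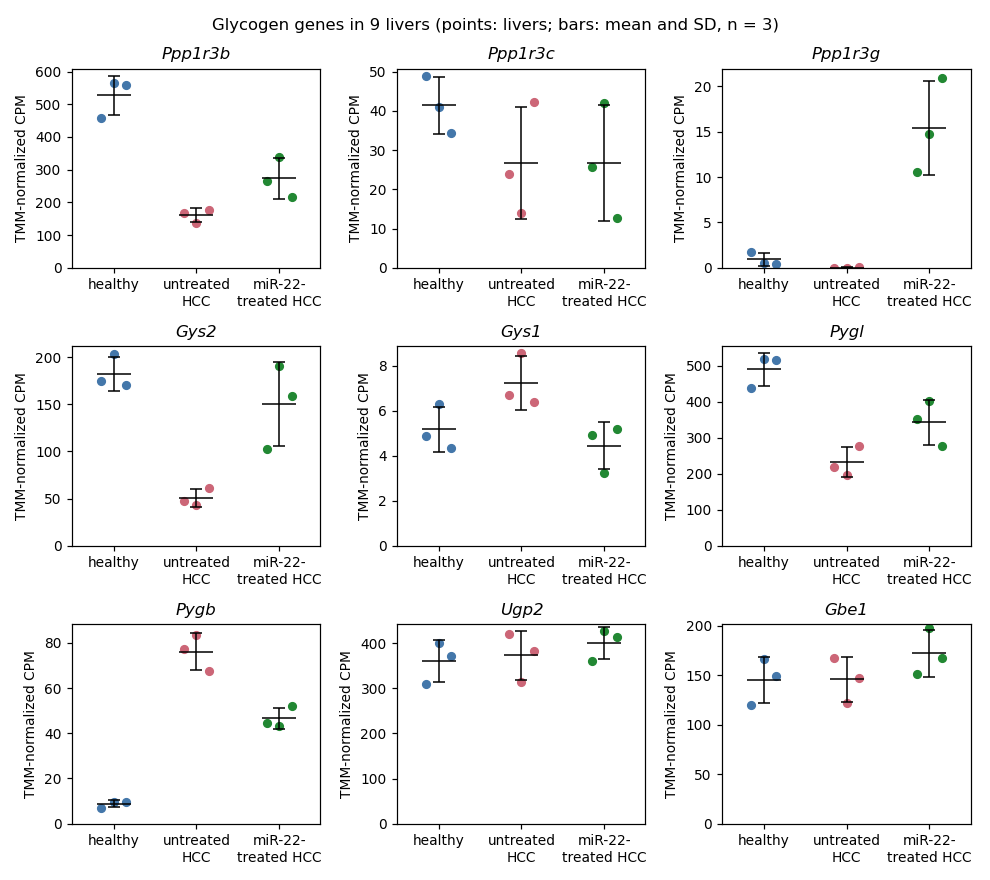
Level of each of the 9 glycogen genes (vertical axis, TMM-normalized CPM from 0) in each liver (points, in replicate order) of the 3 groups, with the mean and SD (bars, n = 3). Ppp1r3g was near 0 in healthy and untreated livers and between 10.6 and 20.9 CPM with miR-22, Pygb was lowest in healthy livers, and the livers of all groups overlapped for Ppp1r3c, Ugp2 and Gbe1.

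The promoters of Ppp1r3c and Ppp1r3g are shown as those of the targeting subunits with the widest spread between livers and between groups. Each runs from 250 bases before to 50 bases after the transcription start (RefSeq, GRCm38.p6), written 5′ to 3′ on the strand of the gene. Capitals mark every CACGTG, the E-box, and every ACGTG, the core of the hypoxia response element, on either strand. The first is chr13:35967656-35967955 (plus strand) and the second chr19:36736555-36736854 (minus strand).
Ppp1r3g: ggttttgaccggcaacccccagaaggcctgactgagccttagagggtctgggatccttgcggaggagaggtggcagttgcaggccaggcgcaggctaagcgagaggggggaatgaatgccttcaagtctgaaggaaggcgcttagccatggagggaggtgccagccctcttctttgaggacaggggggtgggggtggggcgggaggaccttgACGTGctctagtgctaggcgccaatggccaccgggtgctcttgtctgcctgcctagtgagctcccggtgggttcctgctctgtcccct
Ppp1r3c: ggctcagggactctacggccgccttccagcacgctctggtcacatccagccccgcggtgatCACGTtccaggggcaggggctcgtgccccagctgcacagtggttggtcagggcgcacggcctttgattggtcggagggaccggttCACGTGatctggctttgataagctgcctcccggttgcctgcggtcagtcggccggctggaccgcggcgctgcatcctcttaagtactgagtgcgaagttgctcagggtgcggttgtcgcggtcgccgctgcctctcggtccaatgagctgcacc
The Ppp1r3g promoter held ACGTG once, 38 bases before the start. The Ppp1r3c promoter held it at 189 bases before the start and, on both strands of a single CACGTG, at 104 and 103 bases before the start. Promoters of the same length held CACGTG in 7.15% and ACGTG in 19.6% of 32851 cases, and every CACGTG contains ACGTG.

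RefSeq promoters were matched for 7 of the 9 genes, 8 promoters in all since Ugp2 has 2, and Ppp1r3b and Gys2 are not among them. ACGTG also stood in the promoters of Pygl, Pygb and 1 of the 2 of Ugp2, and not in those of Gys1 and Gbe1. Neither the forkhead letters GTAAACA (3.65% of all promoters) nor the cyclic AMP response element TGACGTCA (1.79%), both searched on either strand, were found in any of the 8. These matches describe letters and no bound factor was measured.

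Of the synthases, Gys2 was lower in untreated HCC than in both other groups, and Gys1, at far lower levels, was not. Gys2, the liver synthase (ENSMUSG00000030244.7, chr6:142368339-142418841, minus strand, GRCm39), had 175, 203 and 170 CPM in healthy livers, 47.8, 43.3 and 60.8 CPM in untreated HCC, and 102, 191 and 158 CPM with miR-22. Untreated HCC overlapped neither other group, whereas the treated and healthy livers overlapped. Its log2 fold change was −1.85 ± 0.20 (SE) in untreated HCC against healthy livers (3.60-fold lower), 1.57 ± 0.20 with miR-22 against untreated HCC (2.97-fold higher), and −0.28 ± 0.19 for treated HCC against healthy livers. Gys1, the synthase of muscle and most other tissues (ENSMUSG00000003865.16, chr7:45084175-45106058, plus strand, GRCm39), had 4.90, 6.30 and 4.34 CPM in healthy livers, 6.70, 8.60 and 6.39 CPM in untreated HCC, and 4.92, 3.25 and 5.18 CPM with miR-22.

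Untreated HCC thus held the highest Gys1 levels of the 3 groups without overlap, and treated and healthy livers overlapped. The log2 fold change of Gys1 was 0.48 ± 0.22 (SE) in untreated HCC against healthy livers, and −0.69 ± 0.22 with miR-22 against untreated HCC. Ruvbl2, which overlaps Gys1 on the opposite strand, had 245 to 300 counts in healthy livers, against 438 to 514 in untreated HCC and 190 to 307 with miR-22. With libraries that keep no strand, the reads of the overlap belong to either gene, and their part in the Gys1 values was not tested.

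Of the phosphorylases, Pygl was lower and Pygb higher in untreated HCC than in healthy livers. Pygl, the liver phosphorylase (ENSMUSG00000021069.17, chr12:70237585-70278262, minus strand, GRCm39), had 437, 518 and 514 CPM in healthy livers, 219, 197 and 278 CPM in untreated HCC, and 350.3, 401 and 277 CPM with miR-22. Its log2 fold change was −1.08 ± 0.16 (SE) in untreated HCC against healthy livers. Treated HCC stood 0.57 ± 0.16 above untreated HCC (1.48-fold) and −0.51 ± 0.16 from healthy livers (1.43-fold lower). Treated replicate 4 lay just below untreated replicate 4, so the HCC groups overlapped, while both lay below every healthy liver.

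Pygb, the phosphorylase first known from brain (ENSMUSG00000033059.7, chr2:150628628-150673685, plus strand, GRCm39), had 6.92, 9.70 and 9.78 CPM in healthy livers, 77.3, 83.6 and 67.4 CPM in untreated HCC, and 44.6, 43.1 and 51.9 CPM with miR-22. No groups overlapped. The log2 fold change was 3.11 ± 0.14 (SE) in untreated HCC against healthy livers (8.62-fold higher), −0.71 ± 0.13 with miR-22 against untreated HCC (1.63-fold lower), and 2.40 ± 0.14 for treated HCC against healthy livers (5.28-fold higher). Pygb was thus lower with miR-22 than without but remained several-fold above healthy livers. The canonical transcripts of Pygl and Pygb shared no stretch of 31 bases, and neither did those of Gys2 and Gys1, whereas Pygb and the muscle phosphorylase Pygm shared 38 such stretches.

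The enzymes that make UDP-glucose and branch the chain stayed near 1 level. Ugp2 (ENSMUSG00000001891.16, chr11:21270384-21321276, minus strand, GRCm39) had 309, 401 and 371 CPM in healthy livers, 421, 315 and 383 CPM in untreated HCC, and 361, 426 and 414 CPM with miR-22. Gbe1 (ENSMUSG00000022707.16, chr16:70110715-70366609, plus strand, GRCm39) had 120, 166 and 149 CPM, 168, 122 and 147 CPM, and 151, 198 and 167 CPM in the same order. For both genes all 3 groups overlapped. The log2 fold changes of Ugp2 were 0.050 ± 0.13 (SE) in untreated HCC against healthy livers and 0.10 ± 0.13 with miR-22 against untreated HCC, and those of Gbe1 were 0.0064 ± 0.15 and 0.24 ± 0.15.

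**Figure D2:**
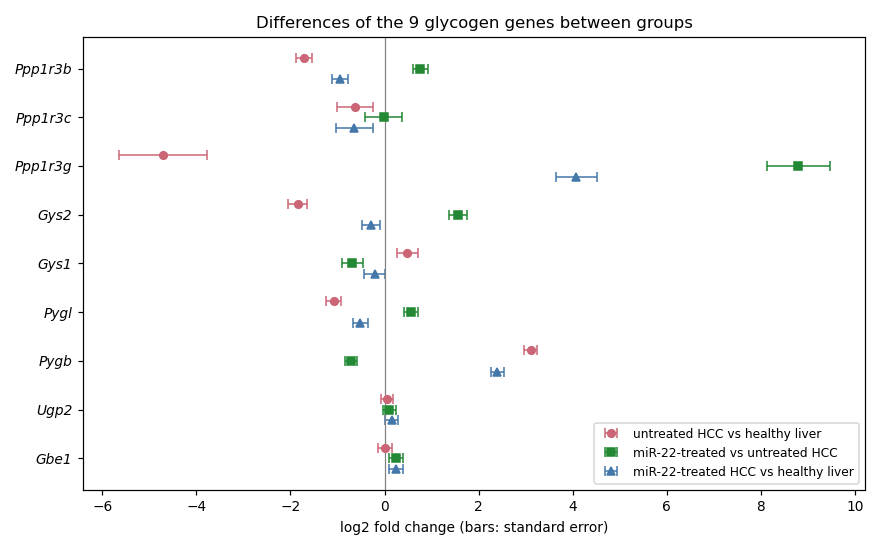
Fitted log2 fold change (horizontal axis; bars, standard error) of each gene in the 3 comparisons, which share groups with each other. Gys2 and Ppp1r3b stood below 0 in untreated HCC against healthy livers and above 0 with miR-22 against untreated HCC, Pygb the other way round, and Ugp2 and Gbe1 stood within 0.25 of 0 in all 3 comparisons. The Ppp1r3g values against untreated HCC rest on 2 counts and depend on edgeR's prior count.

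Apart from Ppp1r3g, which passed the filter through the treated livers in which it is high, the genes were also counted by the thresholds used for all genes, a fold change over 1.5 with an adjusted p under 0.05. Untreated HCC against healthy livers gave 1 higher (Pygb) and 3 lower (Ppp1r3b, Gys2 and Pygl) of the other 8, where 22.7% of all tested genes were higher and 18.1% lower. With miR-22 against untreated HCC, 2 were higher (Ppp1r3b and Gys2) and 2 lower (Gys1 and Pygb), against 8.32% and 5.47% of all genes. Treated HCC against healthy livers gave 1 higher (Pygb) and 1 lower (Ppp1r3b), against 16.9% and 7.05% of all genes. Some of these places hung on a single liver. Gys1 with miR-22 dropped out without untreated replicate 2 or 3 or treated replicate 2 or 3 (log2 fold changes of −0.74, −0.55, −0.76 and −0.51), and Ppp1r3b with miR-22 without treated replicate 3 (0.58). Ppp1r3c joined the lower genes against healthy livers without untreated replicate 4 (−1.13) or, for treated HCC, without treated replicate 3 (−1.12). Pygl passed with miR-22 without untreated replicate 4 (0.72) or treated replicate 4 (0.70), and in treated HCC against healthy livers without healthy replicate 1 (−0.61) or treated replicate 3 (−0.64).

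With Ppp1r3g left aside in the same way, the livers of both groups did not overlap for 5, 4 and 3 of 8 genes in these 3 comparisons, where 65.3%, 39.3% and 48.8% of all genes did not. The median log2 fold change over all 9 genes, which does not depend on the fitted size of Ppp1r3g as it is an end value in each comparison, was −0.62, 0.24 and −0.21, beside 0.012, 0.0020 and 0.022 over all tested genes. Since the genes were chosen with these comparisons known, nothing is read from the counts or the medians. The 3 comparisons share their groups pairwise and are not independent of each other.

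Between genes, levels were compared per kilobase of exon (CPM per kb, union of the exons of a gene). In healthy livers the order was Pygl (144.6 ± 13.5, SD, n = 3), Ugp2 (89.25 ± 11.6), Ppp1r3b (84.39 ± 9.53), Gys2 (68.56 ± 6.76), Gbe1 (32.73 ± 5.29), Ppp1r3c (12.36 ± 2.19), Pygb (1.18 ± 0.22), Gys1 (0.739 ± 0.144) and Ppp1r3g (0.366 ± 0.289). Ugp2 and Ppp1r3b, Ppp1r3b and Gys2, and Gys1 and Ppp1r3g were neighbours whose livers overlapped in that order. Untreated HCC placed Ugp2 first (92.4 ± 13.3), ahead of Pygl (68.34 ± 12.3) but with overlapping livers, and Pygb (10.2 ± 1.09) among the levels of Ppp1r3c (7.98 ± 4.26). By the longest transcript, Pygb there stood at 18.87 ± 2.03, above every Ppp1r3c level and overlapping Gys2 (19.02 ± 3.41).

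In miR-22-treated HCC, Pygl (101.2 ± 18.5 CPM per kb) and Ugp2 (99.19 ± 8.61) again led and overlapped. Gys2 (56.49 ± 16.8), Ppp1r3b (43.73 ± 9.99) and Gbe1 (38.81 ± 5.29) followed, each overlapping the next. Ppp1r3c (7.99 ± 4.40), Pygb (6.21 ± 0.63) and Ppp1r3g (6.13 ± 2.07) overlapped as well, and Gys1 (0.635 ± 0.149) came last. Ppp1r3g, last in the other groups, thus stood within the range of Ppp1r3c in the treated livers.

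As shares, Pygb made up 0.801% ± 0.079 (SD, n = 3) of the summed Pygl and Pygb level per kb in healthy livers, 13.2% ± 3.14 in untreated HCC and 5.97% ± 1.66 in treated HCC. The Gys1 share of both synthases was 1.06% ± 0.10, 5.30% ± 1.60 and 1.22% ± 0.57, so that it overlapped between treated and healthy livers and not between either and untreated HCC. The Pygb share overlapped between none of the groups. With the longest transcript as the length, the Pygb shares were 1.31%, 20.0% and 9.43% and the Gys1 shares 1.77%, 8.59% and 2.04%, in the same order of groups.

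Among the 3 targeting subunits, Ppp1r3b held 86.7% ± 3.56 of the summed level per kb in healthy livers, 77.4% ± 7.43 in untreated HCC and 75.6% ± 2.21 with miR-22. Ppp1r3g held 0.788%, 0.219% and 0.175% in the healthy livers, at most 0.072% in untreated HCC, and 7.74%, 8.07% and 17.85% in the treated livers. The rest was Ppp1r3c, at 12.9% ± 3.23, 22.6% ± 7.39 and 13.1% ± 4.66. The highest Ppp1r3g share was that of treated replicate 4, the liver with the lowest Ppp1r3b and Ppp1r3c levels of its group.

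**Figure D3:**
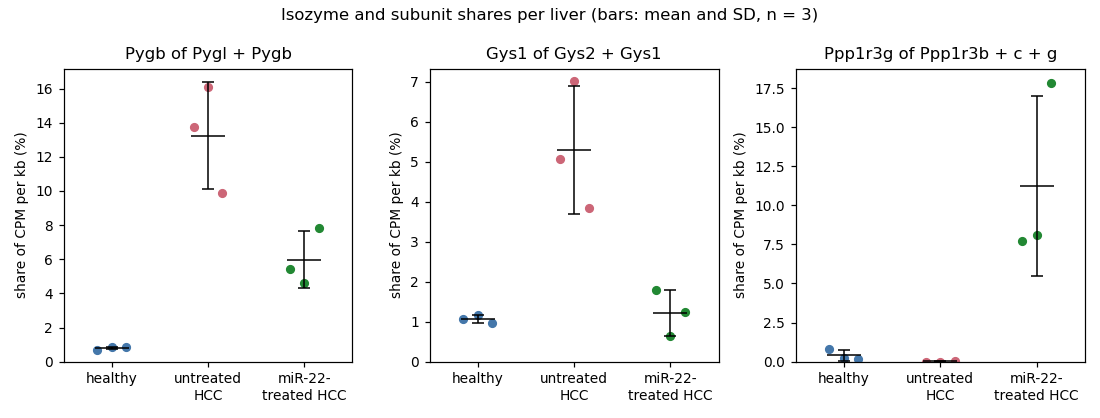
Share (vertical axis, percent of summed CPM per kb of exon) of Pygb among both phosphorylases, of Gys1 among both synthases and of Ppp1r3g among the 3 targeting subunits, in each liver (points) with the mean and SD (bars, n = 3). The Pygb and Gys1 shares were highest in untreated HCC (13.2% and 5.30% on average) and the Ppp1r3g share was highest with miR-22 (7.74% to 17.85%).

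Within the HCC groups, some of the 9 genes ranked the livers alike and others did not. In untreated HCC, Ppp1r3b, Ppp1r3c, Gys2 and Pygl were highest in replicate 4 and lowest in replicate 3, and Pygb and Gys1 were highest in replicate 3 and lowest in replicate 4. The hepatocyte markers had the order of Ppp1r3b, with 51100, 48500 and 60500 CPM in replicates 2, 3 and 4, and the cholangiocyte markers that of Pygb, with 4690, 6260 and 3340 CPM. In miR-22-treated HCC, Ppp1r3b, Ppp1r3c and Pygl were highest in replicate 3 and lowest in replicate 4, as were the hepatocyte markers (80900, 87500 and 72800 CPM), and Pygb and the cholangiocyte markers (1930, 1570 and 2710 CPM) had the reverse order. Ppp1r3g, Gys2, Ugp2 and Gbe1 departed from this, being lowest in treated replicate 2, with Ppp1r3g highest in replicate 4, where the hepatocyte markers were lowest, and in untreated HCC Ugp2 and Gbe1 were highest in replicate 2. With 3 livers per group this is a description, and the part of these cell types in the levels of the 9 genes was not tested.

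Across all 9 livers, the genes whose log2 CPM followed that of each targeting subunit most closely were found by Pearson's r, given here without a test since the livers share groups and depth. For Ppp1r3b these were Otud6b (r = 0.994), Slco1a4 (0.993) and Sgpp1 (0.993). Slco1a4, an organic anion transporter of hepatocytes, had 260 ± 32.2 CPM (SD, n = 3) in healthy livers, 83.1 ± 14.8 in untreated HCC and 140.1 ± 26.5 with miR-22. The genes nearest to Ppp1r3c, Tmem8b (0.913), Gm6225 (0.910) and Htatsf1 (0.907), followed it less closely than any nearest gene of the other subunits.

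Nearest to Ppp1r3g were Hdc (r = 0.976), the enzyme that makes histamine, Egfr (0.963), the receptor of epidermal growth factor, and Ip6k2 (0.956), an inositol hexakisphosphate kinase. Egfr had 233 ± 58.4 CPM (SD, n = 3) in healthy livers, 122 ± 21.4 in untreated HCC and 411 ± 102.7 with miR-22. Hdc had 4.74 ± 0.35, 3.28 ± 0.34 and 6.55 ± 0.57 CPM in the same order. Both shared with Ppp1r3g the order of the groups, with the treated livers above the healthy ones, though over a far narrower range. Their choice by r over these same livers largely fixes this order. In untreated HCC, Ppp1r3g had 0, 0 and 2 counts, so its log2 CPM there rest mostly on the prior count.

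To place the 9 genes in their pathway, 54 other genes in 5 lists were tested, of which 52 passed the filter. Ppp1r3a and Ppp1r1a did not pass it. Of the 52, edgeR's quasi-likelihood test with Benjamini-Hochberg adjustment over all 15717 genes called 8 higher and 16 lower in untreated HCC (against healthy livers, median log2 fold change −0.17). Between miR-22-treated and untreated HCC, 6 were higher and 2 lower (median 0.092). Treated HCC differed from healthy livers in 10 of the 52, 5 higher and 5 lower (median −0.085). Of all tested genes, 22.7% were higher and 18.1% lower in the first of these comparisons. The shares were 8.32% and 5.47% in the second, and 16.9% and 7.05% in the third. The counts were not tested against these shares.

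In the list of glucose entry, phosphorylation and glucose-6-phosphate exit, 4 of 10 genes passed with miR-22, 2 higher and 2 lower. Of all genes, 8.32% were higher and 5.47% lower. The list had the most changes for its size, which was seen only after counting. G6pc1, the phosphatase that releases glucose from glucose-6-phosphate in liver, had 166, 250.1 and 280.3 CPM in healthy livers, 32.5, 39.9 and 85.7 in untreated HCC, and 326, 443 and 297 with miR-22. It rose by 2.75 ± 0.32 on the log2 scale (SE; edgeR adjusted p = 0.000221) with miR-22, and every treated liver exceeded every untreated and every healthy liver. Between treated HCC and healthy livers G6pc1 was not called (0.61 ± 0.30, edgeR adjusted p = 0.136), and 48.8% of all genes did not overlap there. Slc37a4, the transporter that carries glucose-6-phosphate to this phosphatase, rose by 1.09 ± 0.16 (edgeR adjusted p = 0.000852) and lay at −1.58 ± 0.16 in untreated HCC against healthy livers. Hkdc1, a hexokinase that is scarce in adult hepatocytes, fell with miR-22 (log2 fold change −1.36 ± 0.22, edgeR adjusted p = 0.00121), and G6pc3, the broadly made glucose-6-phosphatase, was called lower (−0.62, 0.0364). The G6pc3 call was lost without untreated replicate 3 or 4 or any 1 treated liver (adjusted p = 0.0716 to 0.131) and with the replicate block (0.111).

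Against healthy livers, 7 of these 10 genes differed in untreated HCC, 4 higher and 3 lower. Of all genes, 22.7% were higher and 18.1% lower. Hkdc1 had 0.817, 0.378 and 0.330 CPM in healthy livers and 36.6, 41.0 and 23.4 in untreated HCC, a log2 fold change of 6.05 ± 0.33 (SE; edgeR adjusted p = 3.87e-08). Hk2, a hexokinase of muscle and of many tumors, rose by 1.96 ± 0.21 (edgeR adjusted p = 5.81e-06), and Hk1 was higher too. G6pc3 was called higher (0.67) but not without healthy replicate 1 (0.51, adjusted p = 0.0553) or untreated replicate 4 (0.54, 0.0549). The replicate block ended this call too (0.40, edgeR adjusted p = 0.16). Slc37a4, G6pc1 and the glucokinase regulator Gckr fell. With miR-22, Hkdc1 (4.69 ± 0.34, edgeR adjusted p = 9.15e-07) and Hk2 (1.58 ± 0.21, edgeR adjusted p = 0.000117) were the 2 of the list that passed both thresholds against healthy livers, both higher. Below the fold threshold but with edgeR adjusted p-values under 0.05 were Gckr (−0.57, adjusted p = 0.00146), Slc37a4 (−0.49, 0.0298) and Hk1 (0.48, 0.0392).

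Of 19 hormone and energy control genes, 4 rose with miR-22 and 0 fell past both thresholds by edgeR (all genes: 8.32% and 5.47%). DESeq2 called 3 higher and 0 lower, and at an unadjusted p under 0.05 edgeR had 8 higher and 3 lower. Irs2, an adaptor of the insulin receptor, had 50.7, 65.3 and 44.0 CPM in healthy livers, 9.61, 7.84 and 11.8 in untreated HCC, and 45.9, 17.7 and 35.0 with miR-22 (log2 fold change 1.75 ± 0.28 between the HCC groups, edgeR adjusted p = 0.00124). Adra1b, the adrenergic receptor through which catecholamines act on liver, rose by 1.27 ± 0.15 (edgeR adjusted p = 0.000191). Gcgr, the glucagon receptor, rose by 0.72 ± 0.13 (edgeR adjusted p = 0.00196), and Prkag2, a subunit of the AMP-activated kinase, stood at 0.59 ± 0.11 (0.00248), just past the fold threshold. Prkag2 fell short of that threshold under DESeq2 (0.56) and 6 other alternatives (0.55 to 0.58), and without untreated replicate 3 (0.51) or treated replicate 3 (0.53).

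Against healthy livers, 10 of these 19 genes differed in untreated HCC, 8 of them lower and 2 higher. Of all genes, 18.1% were lower and 22.7% higher. Adra1b fell by 1.99 ± 0.15 on the log2 scale (edgeR adjusted p = 3.12e-07), Prkag2 by 1.27 ± 0.11 (9.23e-07) and Insr, the insulin receptor, by 1.04 ± 0.11 (3.94e-06). Prkab2, another subunit of the AMP-activated kinase, was among those that were higher. In treated HCC, Adra1b (−0.72 ± 0.14) and Prkag2 (−0.69 ± 0.11) still lay below healthy livers, along with Irs1 (−0.81 ± 0.21), with edgeR adjusted p-values of 0.00184, 0.000349 and 0.00904. Without healthy replicate 3, Irs1 fell short of the fold threshold (−0.58).

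Among the other genes of synthesis (7 tested), breakdown (8) and protein phosphatase 1 (8), 0 passed between treated and untreated HCC by edgeR, and 0 by DESeq2. At an unadjusted p under 0.05, edgeR had 2 higher and 1 lower of synthesis, 1 higher of breakdown and 2 lower of the phosphatase. In untreated HCC against healthy livers, Pgm1 and Pgm2, both phosphoglucomutases, moved apart: Pgm1 fell by 0.76 ± 0.10 on the log2 scale (edgeR adjusted p = 3.78e-05) and Pgm2 rose by 1.10 ± 0.16 (7.42e-05). Gyg1, the glycogenin that primes the chain, rose by 1.07 ± 0.19 (0.000341), and Epm2a, the glycogen phosphatase laforin, fell.

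Pygm, the muscle phosphorylase, had 5.78, 2.39 and 2.86 CPM in healthy livers, 1.83, 1.43 and 1.49 in untreated HCC, and 1.54, 1.85 and 2.28 with miR-22. It was called lower in untreated HCC (log2 fold change −1.21 ± 0.34, edgeR adjusted p = 0.00835) and in treated HCC (−0.95 ± 0.34, 0.045) against healthy livers. Healthy replicate 1, its highest liver, is the one with most muscle transcripts, and without it the values were −0.74 (adjusted p = 0.0533) and −0.48 (0.243), so neither call held. The call in treated HCC was also lost without any 1 of the treated livers (adjusted p = 0.0539 to 0.12). Ppp1r3e, another targeting subunit, was called lower in untreated HCC (−1.20 ± 0.38, 0.0177) and in treated HCC (−1.18 ± 0.39, 0.033), and neither call held without healthy replicate 2 (−0.85, adjusted p = 0.107; −0.84, adjusted p = 0.161), the former also not without untreated replicate 2 (0.0712) and the latter without healthy replicate 3 or treated replicate 2 or 4 (0.0513, 0.082 and 0.115). Gyg1 and Pgm2 stayed 0.67 ± 0.19 (0.0151) and 0.94 ± 0.16 (0.000679) above healthy livers in treated HCC, the former not without healthy replicate 2 (0.51, adjusted p = 0.0717).

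**Figure D4:**
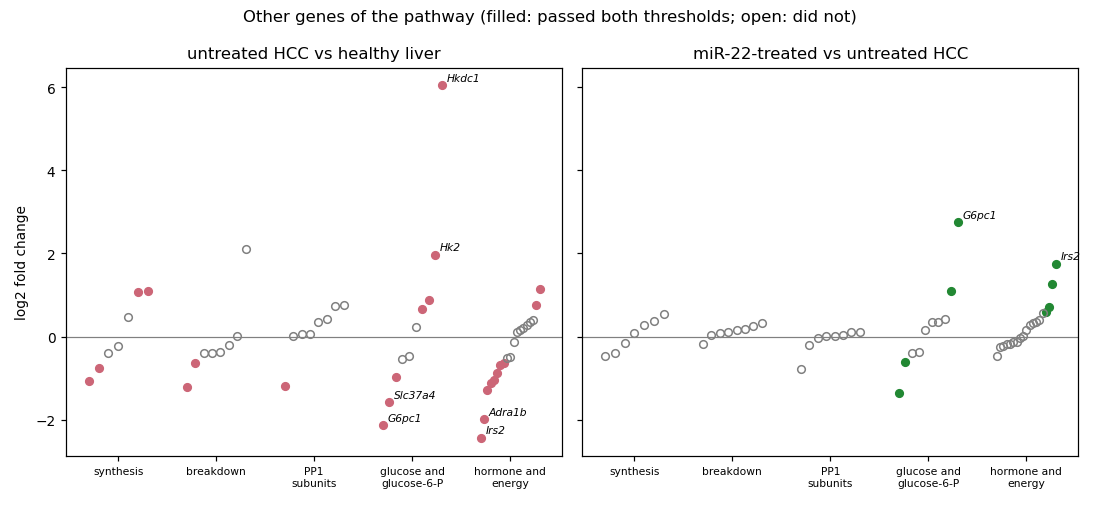
Log2 fold change (vertical axis) of the 52 tested genes of the wider pathway, by list, in untreated HCC against healthy livers (left) and in miR-22-treated against untreated HCC (right). Filled points passed both thresholds (24 at left, 8 at right) and open points did not, and at right the filled points stand in the lists of glucose handling and of hormone and energy control.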

How the data were processed

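RNA-seq libraries of 9 mouse livers were made without strand information, and per the labels and the study's methods the authors checked reads with FastQC 0.11.7, quantified them with Salmon on GRCm39 and summed them per gene. The authors deposited these counts as whole numbers per gene, not normalized, for 55401 genes. A deposited table of the same libraries in normalized form was not used.

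Counts were analysed in R 4.3.3 with edgeR 4.0.16 (TMM scaling, the filter filterByExpr, and the quasi-likelihood F test, two-sided, on a joint fit of the 3 groups). Genes were called at a Benjamini-Hochberg adjusted p under 0.05 over the 15717 tested genes and a fold change over 1.5. CPM are TMM-normalized, and log2 CPM for correlations used a prior count of 2. The labels call the livers separate samples, and p-values measure the spread between these 3 per group. Fold intervals are exact binomial at 95%.

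The 9 genes and the lists were chosen with earlier results of these data known. Named were all 9 genes, up to 3 called genes with the smallest p in each list and comparison, and the 3 genes nearest to each targeting subunit by Pearson's r; Epm2a, Hk1, G6pc3, Gckr, Irs1 and Prkab2, and G6pc1 and Prkag2 where they fall outside this rule, were named after their values were seen, as were the promoters shown. Gyg1 and G6pc1 were matched through a synonym. Akt1 was left off the lists since an AKT was injected. Some genes that the rule would name are not reported here.

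Positions, lengths and 3′ UTRs are from GENCODE M39 (GRCm39), which is later than the annotation of the counts. Alternatives included DESeq2 1.42.0, other size factors and filters, the replicate block and each liver left out in turn. On simulated counts with known changes and the same spread for every gene, the direction was recovered for those changed genes that were called. Genes as variable between livers as Ppp1r3c and Ppp1r3g were not simulated.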

Additional observations from a re-analysis of the deposited data

How the results depend on the processing

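Over the 52 tested pathway genes, the number called in untreated HCC against healthy livers (24), in miR-22-treated against untreated HCC (8) and in treated HCC against healthy livers (10) stayed within 1.5 times of these under DESeq2 (25, 7 and 12), other size factors and other filters on low counts. Without the fold threshold, 36, 14 and 24 were called. Leaving out each liver in turn gave 21 to 25, 6 to 10 and 8 to 12. Leaving out both healthy livers with muscle transcripts, an alternative chosen after seeing the data, gave 24 and 13 against healthy livers. With the replicate number as a block, 6 were called between the HCC groups and 26 between untreated HCC and healthy livers. Same-numbered untreated and treated livers deviated from their group means with correlations of −0.121, −0.131 and −0.235. Differently numbered livers of these 2 groups ran from −0.0136 to 0.131, so no liver correlated best with its own number. As deviations within a group of 3 cancel out, these values cannot decide whether the shared numbers pair the livers. Of the 27 values of named pathway genes, 20 kept their call under every alternative run, 7 lost it under at least 1, and none turned.

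Among the 9 genes no called value turned its direction, and the block ended the calls of Ppp1r3b (0.74) and Gys1 (−0.70) between the HCC groups. Gys1 also lost this call in a fit of these 2 groups alone (−0.70). Against healthy livers, Ppp1r3c was called lower in untreated HCC with the block (−1.02) and, without the filter on low counts, in untreated (−0.61) and treated HCC (−0.63). The fitted values of Ppp1r3g moved most: without untreated replicate 4, which held both untreated counts, they were −7.08 (untreated HCC against healthy livers) and 11.16 (miR-22-treated against untreated HCC), and without healthy replicate 1 that against healthy livers was −3.89 in untreated HCC. Gys1 in untreated HCC against healthy livers was 0.18 without both healthy livers with muscle transcripts, and Pygl was −1.30 with the block. Measured by the longest transcript in place of all exons, levels per kb rose by up to 1.86 times (Pygb). Ppp1r3g did not pass the filter for untreated HCC against healthy livers in the 2-group fit or with the block, nor for any comparison with at least 10 counts in every library, so it has no value there. At this depth, Ppp1r3g in untreated HCC lies at or under the worth of 3 counts.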
